A study of Mus musculus with 6 samples.

Results

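The 10 genes described here are known as markers of pituitary stem cells and folliculostellate cells, and were followed in RNA sequencing of sorted mouse somatotropes and lactotropes. They are Sox2, Sox9, S100b, S100a1, Cyp2f2, Mia1, Cdh26, Gfra2, Gfra3 and Fxyd1. They were taken by gene symbol from a table of FPKM values (fragment counts scaled by transcript length and library total), and all 10 were found among its 22869 genes. Fxyd1 had 4 transcript rows, of which the one with the highest mean was used, and the others had 1 row each. Somatotropes, the growth hormone cells, and lactotropes, the prolactin cells, had been sorted by flow cytometry from pituitaries of female mice, CD1 x C57BL/6 hybrids of 6 to 8 weeks, with 3 libraries of each cell type labelled biological replicates 1 to 3. The labels name no treatment. The sort gate, any reporter allele and the number of animals behind a library are not given in the sources used here. Beyond the label of biological replicate, nothing says that the libraries came from separate animals. The p-values then reflect only how far these libraries spread, which may be technical in part.

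The pituitary keeps a pool of stem cells that express the transcription factors SOX2 and SOX9 and line the cleft between the lobes or lie scattered in the anterior lobe. Folliculostellate cells are non-hormonal cells of the anterior lobe with long processes that form a network among the hormone cells, and S100 protein is their classic marker. The populations overlap in part, and neither makes growth hormone or prolactin. The markers thus form another cell type's list, but which cells of a sorted sample held their transcripts was not tested.

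The hormones followed the labels: Gh lay between 19384 and 84909 FPKM in somatotropes and between 3954 and 7623 FPKM in lactotropes, and Prl between 8709 and 24481 FPKM in somatotropes and between 25171 and 195325 FPKM in lactotropes. Departures from the cell type mean correlated between libraries that share a replicate number (r of 0.341 to 0.763 over genes). The number of fragments per library is unknown, and lactotrope 3 listed 14.94% of the 11642 tested genes at 0, where the other 5 libraries listed 0.232% to 2.95%, so a 0 is given as listed. A gene was tested if its 6 libraries averaged 1 FPKM or more. This minimum was met by 7 of the 10 markers, namely Mia1, Cyp2f2, S100a1, Cdh26, Fxyd1, Sox9 and Sox2, and S100b (mean 0.957 FPKM), Gfra3 (mean 0.0229 FPKM) and Gfra2 (mean 0.0153 FPKM) did not. The number of markers that met it therefore depends on their levels, and counts below are over all 10 unless stated.

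In every library the most abundant of the 10 was Mia1, while the glial marker S100b and the receptors Gfra2 and Gfra3 were near 0 in nearly every library. Within the same replicate number, 6 of the 10 markers had a higher level in somatotropes than in lactotropes in all 3 pairs: Sox2, Sox9, Cyp2f2, Mia1, Cdh26 and Fxyd1. Of all tested genes, 22.9% did so, and the opposite, lactotropes above somatotropes in each pair, held for 0 of the 10 markers against 11.2% of tested genes. For 4 of the 10 (Sox9, Mia1, Cdh26 and Fxyd1) the somatotrope level was at least 1.5 times the lactotrope level in every pair, against 3.92% of tested genes, where Fxyd1 was listed at 0 in 1 lactotrope library. None of the 10 had all 3 somatotrope libraries above all 3 lactotrope libraries, which 2.51% of tested genes had, and none had the reverse, which 1.15% had.

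**Figure D1:**
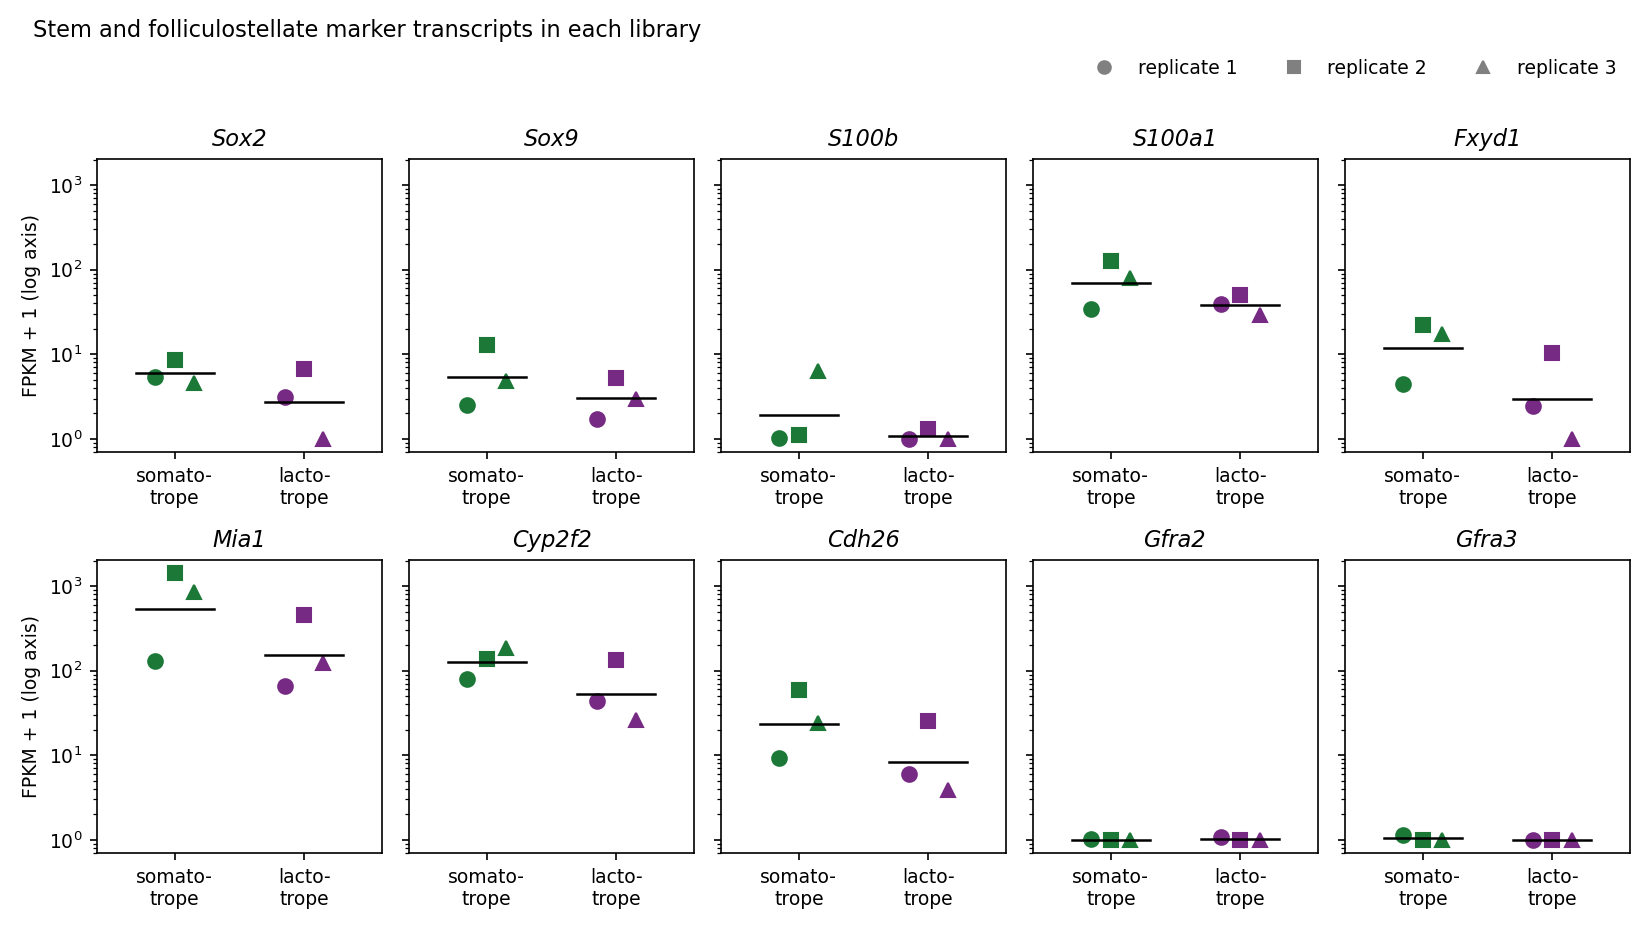
FPKM + 1 on a log axis for each of the 10 markers in each library, by cell type, with a symbol shape for each replicate number and black lines for each cell type's average on the log2(FPKM + 1) scale. Mia1 is highest in all 6 libraries, Gfra2 and Gfra3 lie at the bottom, and the cell types overlap for every marker.

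No marker passed the test between cell types. Values were compared as log2(FPKM + 1) with limma, a linear model with a spread shared across genes, fitted to all 11642 tested genes with Benjamini-Hochberg adjustment at 0.05, and differences are somatotrope minus lactotrope. It called 0 of the 7 tested markers (adjusted p = 1.00 for each), where 0% of all tested genes were called. At an unadjusted p under 0.05 there was 1 of the 7, Fxyd1, and 0.962% of tested genes, or 0.507% counting those higher in somatotropes. With the replicate number as a block limma again called 0 genes and 0 markers, with 6 of the 7 markers, all higher in somatotropes, and 10.9% of tested genes (7.17% higher in somatotropes) at an unadjusted p under 0.05, the exception being Sox9. The smallest adjusted p of a marker in that fit was 0.234, for Mia1. When array weights, which count libraries unequally, were added, limma called 0.0773% of tested genes without the block and 0.369% with it, and 0 markers in either. Each marker was also tested alone by two-sided exact permutation, which gave 0.2 or more, and 3 against 3 libraries cannot go below 0.1.

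The 2 transcription factors were low. Sox2, an HMG-box factor of pluripotent and many tissue stem cells, measured 4.43, 7.68 and 3.56 FPKM across somatotropes 1 to 3, against 2.12, 5.68 and 0.0041 FPKM across lactotropes 1 to 3. Lactotrope 2 was above somatotropes 1 and 3, so the cell types overlapped, and lactotrope 3 was close to a listed 0. Its log2 difference was 1.12 (SE 0.81), 0.39 without lactotrope 3 and 1.76 without lactotrope 2.

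Sox9, a related HMG-box factor of progenitors in cartilage, gut and pituitary, measured 1.53, 11.8 and 3.81 FPKM across somatotropes 1 to 3, against 0.739, 4.24 and 1.98 FPKM across lactotropes 1 to 3. In both cell types replicate 2 was highest and replicate 1 lowest. The somatotrope level was 2.07, 2.79 and 1.93 times the lactotrope level in replicates 1 to 3, the narrowest range among the markers with a ratio in all 3 pairs. The means were 5.72 ± 5.41 FPKM and 2.32 ± 1.77 FPKM (SD, n = 3 each), and the log2 difference was 0.84 (SE 0.80), or 0.22 without somatotrope 2 and 1.39 without somatotrope 1. In the mm9 coordinates of the table Sox2 spans chromosome 3 from 34548927 to 34551382 on the plus strand, inside the span of the noncoding gene Sox2ot on the same strand, and Sox9 spans chromosome 11 from 112643524 to 112649071. Sox2ot measured 1.12, 3.78 and 0.734 FPKM across somatotropes 1 to 3, against 1.45, 1.97 and a listed 0 FPKM across lactotropes 1 to 3, and the labels do not say how reads in the shared span were assigned.

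Of the other SOX genes fixed for comparison, 1 of 9 was tested and 0 passed limma: Sox4, a factor of many progenitors and immature cells, lay between 3.61 and 10.3 FPKM in somatotropes and between 7.42 and 9.97 FPKM in lactotropes. By mean level Sox11 (0.863 FPKM), Sox6 (0.620 FPKM) and Sox5 (0.525 FPKM) followed. Sox3, a close relative of Sox2, reached at most 0.302 FPKM, in lactotrope 1, and Sox21 was listed at 0 in all 6 libraries.

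The pair of EF-hand calcium-binding genes behaved differently from each other. S100b, the marker by which folliculostellate cells are usually stained and which astrocytes and Schwann cells also express, measured 0.0205, 0.102 and 5.32 FPKM across somatotropes 1 to 3, against a listed 0, 0.300 and a listed 0 FPKM across lactotropes 1 to 3. Only somatotrope 3 was above 1 FPKM. S100a1, best known as a regulator of calcium handling in muscle, measured 33.4, 125 and 78.02 FPKM across somatotropes 1 to 3, against 38.1, 49.2 and 28.2 FPKM across lactotropes 1 to 3. It was higher in lactotrope 1 than in somatotrope 1, and 2.54 and 2.77 times as high in somatotropes in replicates 2 and 3. The means were 78.9 ± 45.9 FPKM and 38.5 ± 10.5 FPKM (SD, n = 3 each), and the log2 difference was 0.86 (SE 0.60), or 0.44 without somatotrope 2 and 1.37 without somatotrope 1.

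The library with S100b also held the highest level of other glial transcripts. Gfap, the intermediate filament of astrocytes and of some folliculostellate cells and pituicytes, lay at 3.05 FPKM in somatotrope 3 and at 0 to 0.435 FPKM in the other 5 libraries. Mbp, a myelin gene, lay at 118 FPKM in somatotrope 3 and at 1.28 to 30.7 FPKM in the others. The summed level of 5 Schwann and myelinating glia markers ranged from 3.04 to 120 FPKM in somatotropes and from 4.71 to 31.5 FPKM in lactotropes and Mbp held most of it in somatotrope 3, while the defining gene Sox10 was at a listed 0 in 4 of the 6 libraries, somatotrope 3 among them, and at most 0.188 FPKM. The 5 markers of pituicytes, the glia of the posterior lobe, summed to 0.0633 to 1.18 FPKM in somatotropes and 0.603 to 3.86 FPKM in lactotropes. Somatotrope 3 was also highest in Pomc, the corticotrope hormone gene, at 5758 FPKM. The part of these cells in the S100b value was not tested.

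S100b spans chromosome 10 from 75716581 to 75724064 on the plus strand and S100a1 chromosome 3 from 90314956 to 90318252 on the minus strand. Of 6 other S100 genes, 5 were tested, and 0 passed limma, with or without the block. S100a16 and S100a10 were higher in somatotropes in all 3 pairs. S100a16 measured 11.9, 84.3 and 57.7 FPKM across somatotropes 1 to 3, against 5.24, 45.3 and 19.7 FPKM across lactotropes 1 to 3, the same order of replicates as S100a1 in somatotropes. S100a11 (54.5 FPKM on average) and S100a10 (49.4 FPKM) were near S100a1 in level, and S100a11 had a log2 difference of -0.04 (SE 0.62).

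Mia1, which encodes a small secreted protein with an SH3-like fold that is known from cartilage and melanoma, measured 127, 1432 and 843 FPKM across somatotropes 1 to 3, against 64.9, 453 and 123 FPKM across lactotropes 1 to 3. Both replicate 1 libraries were the lowest of their cell type, and lactotrope 2 was above somatotrope 1. The somatotrope level was 1.96, 3.16 and 6.85 times the lactotrope level in replicates 1 to 3. The means were 801 ± 653 FPKM and 214 ± 209 FPKM (SD, n = 3 each), and the log2 difference was 1.80 (SE 0.92, limma adjusted p = 1.00), or 1.09 without somatotrope 2 and 2.83 without somatotrope 1. The SE was 0.38 and the adjusted p 0.234 with the replicate block, and over 21 alternatives limma's adjusted p ran from 0.0868 to 1.00. In somatotropes 2 and 3 and lactotrope 2 Mia1 stood above 99.9%, 99.9% and 99.8% of tested genes, and in replicate 1 above 98.5% of them in somatotropes and 95.4% in lactotropes.

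Cyp2f2, a cytochrome P450 best known from the club cells of the mouse lung airway, measured 79.5, 135 and 185 FPKM across somatotropes 1 to 3, against 42.5, 133 and 25.3 FPKM across lactotropes 1 to 3. Lactotrope 2 was above somatotrope 1 and within 1.01 times of somatotrope 2, and the ratios in replicates 1 and 3 were 1.87 and 7.34. The means were 133 ± 52.9 FPKM and 67.1 ± 58.2 FPKM (SD, n = 3 each) and the log2 difference was 1.24 (SE 0.67), with 0.73 without lactotrope 3 and 1.91 without lactotrope 2. After median-ratio scaling or quantile normalization, Cyp2f2 was no longer higher in somatotropes in all 3 pairs, and the count fell from 6 to 5.

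Mia1 and Cyp2f2 are near neighbours on chromosome 7, with Cyp2f2 from 27904974 to 27918679 on the plus strand and Mia1 from 27964760 to 27966168 on the minus strand, 46.1 kb apart. Their ratio was not constant. Mia1 was 1.604, 10.6 and 4.55 times Cyp2f2 per transcript length in somatotropes 1 to 3 and 1.53, 3.39 and 4.88 times in lactotropes 1 to 3. The ratio was thus lowest in replicate 1 of both cell types and highest in somatotrope 2. Of the genes between them, Rab4b, a small GTPase of endosomes whose row ends 857 bases from that of Mia1, was higher in lactotrope 1 than in somatotrope 1, at 29.6 and 18.1 FPKM, and Egln2, an oxygen-sensing hydroxylase, lay at 20.7 to 35.0 FPKM in somatotropes and 10.6 to 22.8 FPKM in lactotropes. The microRNA row Mir3101, inside the span of Rab4b on the same strand, was higher in somatotropes in all 3 pairs, at 6.60 to 11.6 FPKM against 0 to 11.2 FPKM. In replicate 2 the gap was small, at 11.6 against 11.2 FPKM, and lactotrope 3 was a listed 0. The labels do not say how reads shared with Rab4b were assigned.

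Cdh26, a cadherin of epithelial cells, measured 8.24, 57.5 and 23.0 FPKM across somatotropes 1 to 3, against 4.98, 24.1 and 2.83 FPKM across lactotropes 1 to 3. Lactotrope 2 was above somatotropes 1 and 3. The ratio was 1.65, 2.38 and 8.14 in replicates 1 to 3, and the log2 difference was 1.499 (SE 0.83), with 0.84 without somatotrope 2 and 2.30 without lactotrope 2. Cdh26 spans chromosome 2 from 178165312 to 178222071 on the plus strand. Of 9 other cadherin and junction genes, 7 were tested and 0 passed limma. Of the 7, 6 were higher in somatotropes in all 3 pairs, against 22.9% of all tested genes. The most abundant was Epcam, an adhesion molecule of epithelia, at 99.0 to 146 FPKM in somatotropes and 65.4 to 140.5 FPKM in lactotropes, with a log2 difference of 0.37 (SE 0.56). The tight junction genes Cldn3, Cldn7 and Cldn6 followed, with log2 differences of 0.72 (SE 0.73), 1.05 (SE 0.82) and 1.10 (SE 0.64).

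Fxyd1, which encodes phospholemman, a small membrane protein that regulates the sodium pump, measured 3.49, 21.3 and 16.3 FPKM across somatotropes 1 to 3, against 1.42, 9.43 and a listed 0 FPKM across lactotropes 1 to 3. Lactotrope 2 was above somatotrope 1. The ratio was 2.46 and 2.26 in replicates 1 and 2, and the log2 difference of 2.03 (SE 0.92) was 1.26 without lactotrope 3, 0.99 with replicates 1 and 2 only, and 2.76 when the 4 rows were summed. All 4 transcript rows showed this pattern, each with a listed 0 in lactotrope 3, and the lowest of their somatotrope 2 values was 18.6 FPKM. Fxyd1 spans chromosome 7 from 31836697 to 31840675 on the minus strand.

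Of 12 genes for sodium pump subunits and other FXYD proteins, 7 were tested and 0 passed limma. In all 3 pairs 3 were above in somatotropes and 1 in lactotropes, against 22.9% and 11.2% of all tested genes. The beta subunit gene Atp1b1 measured 109, 157 and 82.3 FPKM across somatotropes 1 to 3, against 103, 51.7 and 17.9 FPKM across lactotropes 1 to 3. The beta subunit gene Atp1b3 went the other way and measured 15.6, 18.1 and 23.4 FPKM across somatotropes 1 to 3, against 44.9, 22.1 and 36.8 FPKM across lactotropes 1 to 3. Fxyd5, which lies 9355 bases from Fxyd1 in the table, had a log2 difference of -0.92 (SE 0.98).

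The co-receptors Gfra2 and Gfra3, which bind neurturin and artemin and signal through the receptor tyrosine kinase RET, were close to absent from the table. Gfra2 had 0.0098 FPKM in somatotrope 1, 0.0819 FPKM in lactotrope 1, and was listed at 0 in the other 4 libraries. Gfra3 lay at 0.137 FPKM in somatotrope 1 and was listed at 0 in the other 5. Both were seen only in replicate 1. Of the 7 genes of the same ligand and receptor family, Nrtn, which encodes neurturin, was tested with 0.969 to 4.49 FPKM in somatotropes and 0.776 to 2.13 FPKM in lactotropes, and Gfra4 with a mean of 1.08 FPKM. Gfra1 (mean 0.947 FPKM) and Pspn (mean 0.635 FPKM) were below the minimum, Ret reached at most 0.634 FPKM, in somatotrope 2, and Gdnf was listed at 0 in all 6 libraries. None passed limma.

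**Figure D2:**
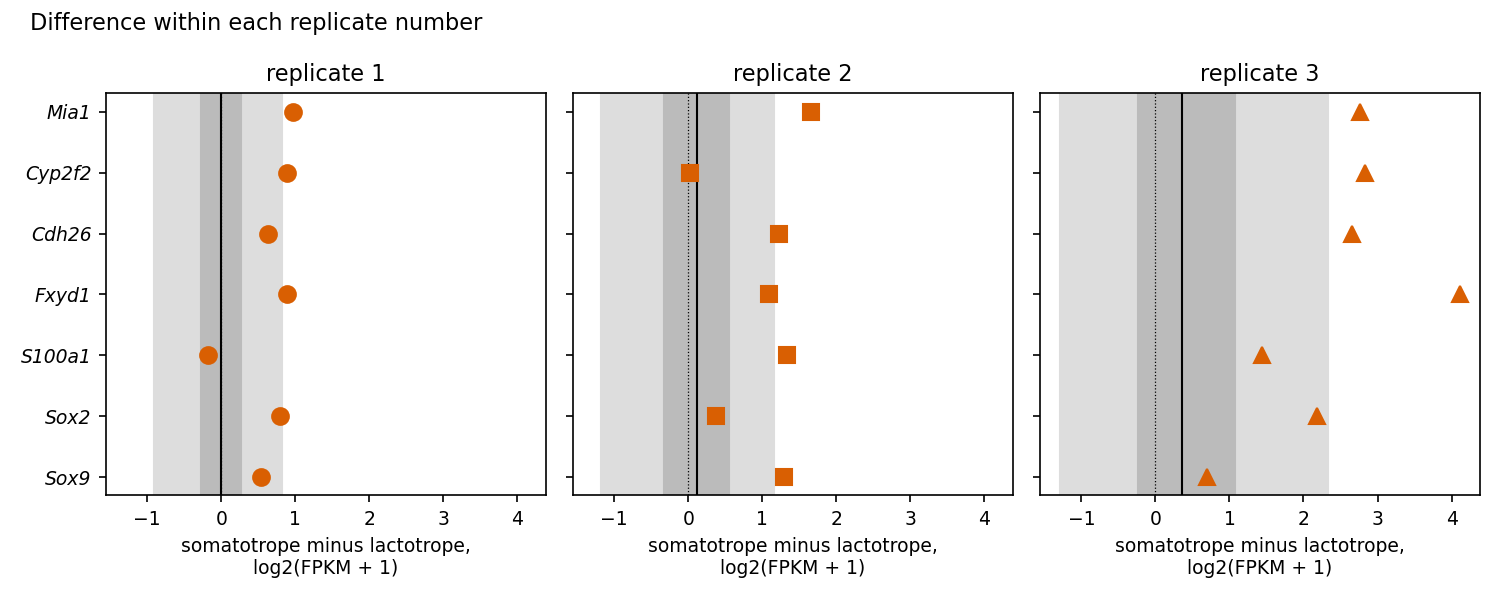
Difference in log2(FPKM + 1), somatotrope minus lactotrope, within each replicate number for the 7 tested markers (orange). Dark and light grey bands span the middle 50% and 90% of all tested genes and the black line is their median. S100a1 in replicate 1 is the only marker below 0, and the spread of all genes is widest in replicate 3.

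The size of the difference depended on the pair. The median over the 7 tested markers was 0.80, 1.22 and 2.65 on the log2 scale in replicates 1 to 3, where the median over all tested genes was 0.003, 0.118 and 0.363. The middle 90% of tested genes ran from -0.91 to 0.82 in replicate 1, from -1.17 to 1.16 in replicate 2 and from -1.29 to 2.33 in replicate 3. Above that range lay Mia1, Cyp2f2 and Fxyd1 in replicate 1, and Mia1, S100a1, Sox9 and Cdh26 in replicate 2. In replicate 3 these were Mia1, Cyp2f2, Cdh26 and Fxyd1, and the lactotrope 3 library of that pair is the one with the most listed zeros. Mia1 was above the range in all 3 pairs. With replicates 1 and 2 only, the median over the 7 markers was 0.92 and Mia1 had 1.31. Over all 6 libraries the median was 1.24 for the markers and 0.179 for all tested genes, and the 7 markers ranged from 0.84 to 2.03. In bulk samples, fewer cells of a type and less RNA per cell cannot be told apart.

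Replicate number took a larger share of the variation than cell type for most markers. It has more levels than cell type, so it takes a larger share even where neither has an effect. Of the variation of log2(FPKM + 1) over the 6 libraries, cell type took 20.8% (Sox9) to 41.0% (Fxyd1) and replicate number 26.6% (Cyp2f2) to 76.1% (Sox9) for the 7 tested markers. Cyp2f2 and Fxyd1 had a larger cell type share than replicate share, at 38.8% against 26.6% and 41.0% against 37.5%. The medians over all tested genes were 6.44% for cell type and 77.4% for replicate number. Replicate 2 was the highest in both cell types for 6 of the 10 markers, against 10.8% of tested genes, and somatotrope 1 was the lowest somatotrope library for 7 of the 10, against 15.7%. The 7 are Sox9, S100b, S100a1, Cyp2f2, Mia1, Cdh26 and Fxyd1.

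**Figure D3:**
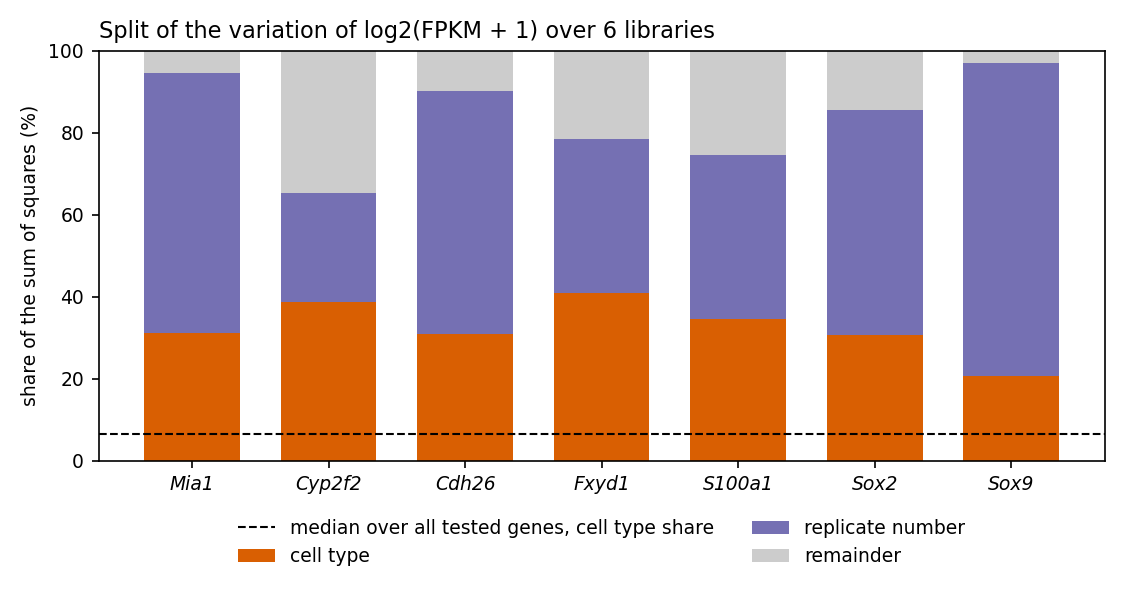
Share of the sum of squares of log2(FPKM + 1) over the 6 libraries taken by cell type (orange), replicate number (violet) and the remainder (grey) for each tested marker. The dashed line is the median cell type share of all tested genes, 6.44%, and every marker's cell type share lies above it.

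For 6 of the 7 tested markers, the overlap of the cell types was gone without lactotrope 2 or without somatotrope 1, the exception being Sox9. Without lactotrope 2, all remaining somatotrope libraries lay above both remaining lactotrope libraries for 5 markers, namely Sox2, Cyp2f2, Mia1, Cdh26 and Fxyd1, against 6.35% of tested genes. Without somatotrope 1 this held for 4, namely S100a1, Cyp2f2, Mia1 and Fxyd1, against 6.54% of tested genes, and limma called 3 genes, none of them a marker. Leaving out any other single library gave 0 markers.

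Other genes tied to pituitary stem and folliculostellate cells lay the same way. Of 20 such genes, 16 were tested, and 0 passed limma with or without the block. Among the 16, 10 had the higher value in somatotropes in every pair, against 22.9% of all tested genes. In lactotropes 0 had it in every pair, against 11.2%. The median log2 difference of the 16 was 1.06, beside 0.179 over all tested genes. The list was chosen with results of these data known, so its direction is not independent of them. The most abundant was Aldoc, a brain-type glycolytic aldolase, measured 67.6, 926 and 175 FPKM across somatotropes 1 to 3, against 40.9, 155 and 8.49 FPKM across lactotropes 1 to 3. Replicate 2 was highest in each cell type, as for Mia1.

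Cd9, a tetraspanin of pituitary stem cells, measured 54.2, 189 and 107 FPKM across somatotropes 1 to 3, against 32.2, 108 and 43.5 FPKM across lactotropes 1 to 3. The keratin gene Krt18 measured 76.4, 78.7 and 70.9 FPKM across somatotropes 1 to 3, against 25.3, 42.9 and 17.0 FPKM across lactotropes 1 to 3. Krt18 was thus about level over the 3 somatotropes and above every lactotrope, with a log2 difference of 1.47 (SE 0.55, limma adjusted p = 1.00, and 0.234 with the block). Aldh1a2, which makes retinoic acid, measured 24.8, 55.2 and 67.7 FPKM across somatotropes 1 to 3, against 17.0, 37.5 and 5.08 FPKM across lactotropes 1 to 3.

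**Figure D4:**
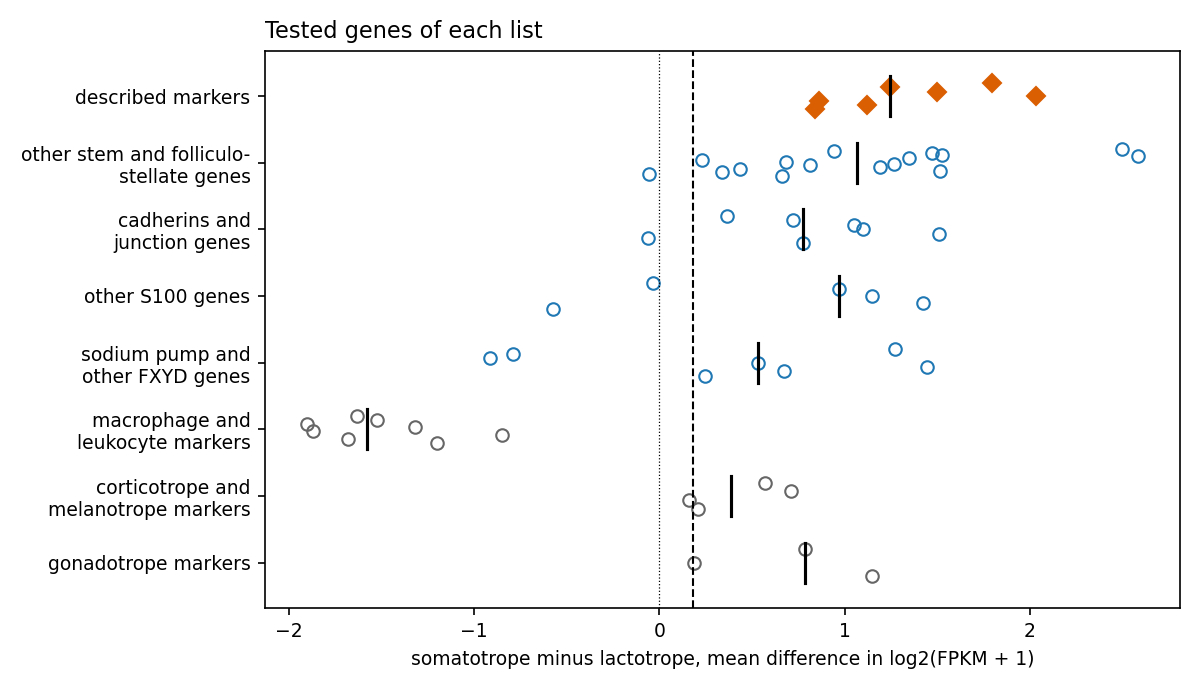
Difference in log2(FPKM + 1), somatotrope minus lactotrope, for the tested genes of each list, with a black bar at the list's median. Orange diamonds are the 7 tested markers, blue circles related genes and grey circles markers of other cell types, and the dashed line is the median of all tested genes, 0.179. Macrophage and leukocyte markers lie below 0 and the described markers above it.

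Markers of other cell types did not share one direction. All 8 tested macrophage and leukocyte markers were higher in lactotropes in all 3 pairs, against 11.2% of all tested genes. The median log2 difference of the 8 was -1.58, and 0 passed limma. Their summed level ranged from 48.6 to 773 FPKM in somatotropes and from 211 to 2657 FPKM in lactotropes, lowest in replicate 1 and highest in replicate 2 of each cell type. The sum of the 10 markers had the same order, at 258, 1791 and 1159 FPKM in somatotropes 1 to 3 and 155, 680 and 181 FPKM in lactotropes 1 to 3. Mia1 alone made up 41.9% (lactotrope 1) to 80.0% (somatotrope 2) of that sum. Mia1 and Sox9 had this order, but among lactotropes Sox2, S100a1, Cyp2f2, Cdh26 and Fxyd1 were lowest in lactotrope 3. C1qb and Lyz2 were the most abundant, up to 973 and 772 FPKM in lactotrope 2. Corticotrope and melanotrope markers summed to 95.9 to 5778 FPKM in somatotropes and 426 to 877 FPKM in lactotropes, mostly Pomc, and 0 of 4 tested were higher in 1 cell type in all 3 pairs.

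Gonadotrope markers summed to 7.89 to 104 FPKM in somatotropes and 7.85 to 18.7 FPKM in lactotropes, and thyrotrope markers to 11.2 to 52.4 FPKM and 6.11 to 85.6 FPKM. Erythroid markers summed to 15.2 to 2147 FPKM in somatotropes and 2.95 to 1769 FPKM in lactotropes, high in replicate 3 of both. None of the 5 endothelial markers was tested, and they summed to at most 3.27 FPKM. Fibroblast and mural markers summed to 29.0 to 59.4 FPKM in somatotropes and 21.7 to 71.9 FPKM in lactotropes. The part of these cells in the levels of the 10 markers was not tested.

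**Figure D5:**
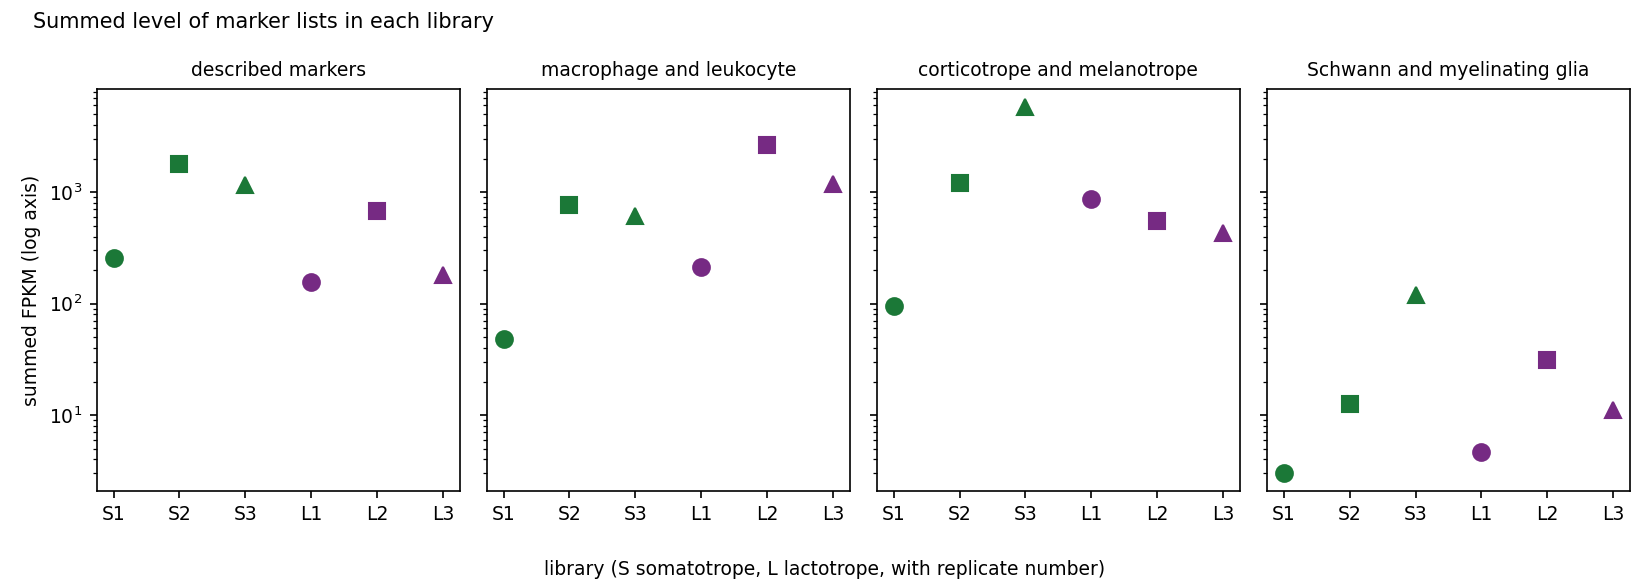
Summed FPKM on a log axis in each library for the 10 described markers and for marker lists of 3 other cell types, somatotropes in green and lactotropes in violet. The sum of the described markers is highest in somatotrope 2, at 1791 FPKM, of which Mia1 took 80.0%. The macrophage and leukocyte sum is highest in lactotrope 2, at 2657 FPKM.

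Cdh26 and Fxyd1 followed the other tested markers most closely, with Pearson's r of 0.994 and 0.976 between their log2 level and the mean profile of the other 6 over the 6 libraries, and Sox2 least closely, with 0.785. The mean profile of the 7 was highest in somatotrope 2 and lowest in lactotrope 3. Among 6141 other genes averaging 5 FPKM or more, the 10 most like this profile were Spry1 (r = 0.998), Slc9a3r1 (0.997), Anxa2 (0.997), Gstm2 (0.996), Nt5dc2 (0.996), Ces1d (0.995), Triobp (0.995), Gsta4 (0.995), Folr1 (0.992) and Arf6 (0.991). In all, 80 of these genes, or 1.3%, reached 0.95. The 6 points share replicate numbers and the profile was matched on the same libraries, so these values are descriptive.

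Anxa2, a calcium-dependent membrane-binding protein gene and the most abundant of the 10, measured 44.6, 203 and 125 FPKM across somatotropes 1 to 3, against 34.5, 95.9 and 24.6 FPKM across lactotropes 1 to 3. Spry1, a feedback inhibitor of receptor tyrosine kinase signalling, measured 4.75, 14.6 and 9.81 FPKM across somatotropes 1 to 3, against 2.69, 8.15 and 1.83 FPKM across lactotropes 1 to 3. Gstm2, a glutathione transferase gene, had a log2 difference of 1.99 (SE 0.85), the largest of the 10. All 10 were higher in somatotropes in all 3 pairs, with limma adjusted p = 1.00. They were picked for likeness to a profile that is itself higher in somatotropes in each pair. Their direction therefore follows from the choice and is not a separate result.

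The DNA just upstream of the start sites is shown for 5 markers. They are those closest to the mean profile (Cdh26 and Fxyd1), the neighbouring pair (Mia1 and Cyp2f2) and Sox2, which followed that profile least closely. Whether the markers share regulation was not tested. RefSeq promoter windows on GRCm38.p6 were found for 7 of the 10 by transcript accession, Mia1 under its newer symbol Mia, and those of Sox9, Gfra2 and Gfra3 were not used here. Each is 250 bases long and ends at the base before the start site, with Sox2 at chr3:34649745-34649994 (plus strand), Cdh26 at chr2:178430265-178430514 (plus), Fxyd1 at chr7:31054854-31055103 (minus), Mia1 at chr7:27181150-27181399 (minus) and Cyp2f2 at chr7:27119705-27119954 (plus). Capitals mark ACAAAG, a core that SOX and TCF/LEF factors can bind, searched with its reverse complement CTTTGT.
Sox2: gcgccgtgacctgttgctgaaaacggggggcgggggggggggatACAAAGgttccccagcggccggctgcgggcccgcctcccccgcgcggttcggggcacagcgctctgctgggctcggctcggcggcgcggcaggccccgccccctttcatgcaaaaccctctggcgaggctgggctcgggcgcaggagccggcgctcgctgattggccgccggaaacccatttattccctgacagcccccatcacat
Cdh26: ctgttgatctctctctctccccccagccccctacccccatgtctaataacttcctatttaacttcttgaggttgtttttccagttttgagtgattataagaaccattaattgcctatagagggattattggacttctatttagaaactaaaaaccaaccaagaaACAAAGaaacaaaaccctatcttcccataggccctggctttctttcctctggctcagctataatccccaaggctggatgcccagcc
Fxyd1: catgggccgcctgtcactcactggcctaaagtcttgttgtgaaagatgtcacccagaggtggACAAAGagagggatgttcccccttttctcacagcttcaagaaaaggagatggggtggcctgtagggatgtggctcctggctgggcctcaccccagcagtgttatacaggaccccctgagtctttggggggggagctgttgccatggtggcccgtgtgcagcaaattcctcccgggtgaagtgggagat
Mia1: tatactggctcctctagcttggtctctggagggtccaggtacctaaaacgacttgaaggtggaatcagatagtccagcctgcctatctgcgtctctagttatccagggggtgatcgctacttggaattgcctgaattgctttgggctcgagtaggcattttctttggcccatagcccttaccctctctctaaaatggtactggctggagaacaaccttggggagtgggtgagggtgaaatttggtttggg
Cyp2f2: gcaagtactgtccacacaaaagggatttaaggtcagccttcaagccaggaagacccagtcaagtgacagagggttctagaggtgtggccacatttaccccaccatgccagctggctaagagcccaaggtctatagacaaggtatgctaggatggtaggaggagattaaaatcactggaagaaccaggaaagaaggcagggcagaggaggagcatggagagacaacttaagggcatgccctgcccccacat

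ACAAAG or its complement was in 3 of the 7 windows, those of Sox2, Cdh26 and Fxyd1, with its first letter 206, 86 and 188 bases upstream of the start, and in 16.5% of all 32851 promoter windows of this length. The other SOX core searched, ACAAT or ATTGT, was in 0 of the 7 and in 27.7% of all windows. The motifs were picked after the windows were seen. The windows differed in composition, with 42.8% G and C in Cdh26 and 72.0% in Sox2, beside a median of 52.4% over all windows.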

How the data were processed

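FPKM values come from a table the authors deposited, which has 30399 transcript rows in mm9 coordinates and a column for each library, named as in the sample descriptions. Amplification used NuGen Ovation V2, per the labels' protocols. The tools named are bcl2fastq 2.17.1.14, TopHat and edgeR, per the submitters' processing notes, but their settings and the counting method are not given here. FPKM divides by library total, so very abundant transcripts lower all others, and fragment depth and counting error are unknown.

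The 889 rows without a symbol were left out, and the row with the highest mean was used for each of 22869 genes. Genes averaging 1 FPKM or more were fitted as log2(FPKM + 1) in limma 3.58.1 (R 4.3.3) with its trend option. On this scale the change of low genes is understated. Deviations of same-numbered libraries correlated at 0.763, 0.613 and 0.341 over genes, so the numbers in the titles were taken as pairs. Blocked results are given for the counts of genes called and for Mia1 and Krt18. Other SEs and the differences with a library left out are from the fit without the block, and the exact permutation also ignored the pairs. For the 7 tested markers the SE was 0.60 (S100a1) to 0.92 (Mia1) without the block. With it the SE was 0.36 (S100a1) to 0.61 (Fxyd1). On simulated data of 11642 genes for this comparison, limma recovered 0% of 4-fold and 28.5% of 16-fold changes without the block, and 6.27% and 60.9% with it, with 1 false call each in 5 data sets. The 10 markers and the gene lists were chosen with earlier results of these data known. All 10 are described, with up to 4 of the most abundant tested genes of each related list, the 2 most abundant markers of other cell types where a result touches them, and the 10 genes of closest profile. Other genes were named after their values were seen: Gfap, Mbp, Sox10, Sox2ot, Rab4b, Egln2, Mir3101, Gfra1, Pspn, Ret, Gdnf and the SOX genes other than Sox4. Some listed genes are not reported here.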

Additional observations from a re-analysis of the deposited data

How the results depend on the processing

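Over 21 alternatives (other pseudocounts, filters, scalings, row choices, variance settings, array weights, the replicate block and libraries left out), none of the 7 tested markers was called by limma and none of their differences changed sign. Sox2 and Sox9 entered 20 of the 21, since a mean of at least 5 FPKM leaves them out. The median over the tested markers was 1.24 and ran from 0.81 with array weights to 1.91 without lactotrope 2. With the replicate number as a block it stayed 1.24 with 0 genes called, and the block changed no call. The number of genes called was 0 in the reported fit, 9 with array weights, 43 with the replicate block and array weights, and 0 to 3 with 1 library left out, the 3 without somatotrope 1. The number of markers with all somatotrope libraries above all lactotrope libraries was 0, but 5 with replicates 1 and 3 only, 4 with replicates 2 and 3 only, and 0 to 5 with 1 library left out. Dropping a pair leaves fewer libraries to overlap. The count higher in somatotropes in every pair ran from 4, with that minimum of 5 FPKM, to 7. Sox2 had a log2 difference of 2.20 with a pseudocount of 0.1 FPKM, 0.48 with 5 FPKM and 0.23 with array weights, Fxyd1 had 3.25 and 1.12 with those pseudocounts, and Cyp2f2 had 0.34 with array weights. Without counts, what depth limits cannot be stated.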

Other observations

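Nes and Klf4 were among the genes of the stem and folliculostellate comparison list that stood outside the pattern of the markers. Nes was not the only tested one, since 10 of the 16 tested genes were higher in somatotropes in all 3 pairs. Nes, which encodes the intermediate filament nestin of neural and other progenitors, had 4.69 FPKM in somatotrope 1, 5.01 FPKM in lactotrope 1, and 0 to 0.265 FPKM in the other 4 libraries, so it was high in the replicate in which Mia1, Cdh26, Fxyd1 and Sox9 were lowest in somatotropes. Klf4, a transcription factor of pluripotent cells and differentiated epithelia, was higher in lactotropes in all 3 pairs, at 0.857, 0.571 and 2.21 FPKM against 0.225, 0.0875 and 0.782 FPKM in somatotropes 1 to 3, with a mean under the minimum for testing.

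Other S100 genes near S100a1 in the table had different values. S100a13, whose row lies 104 bases from that of S100a1 on the opposite strand, measured 3.83, 8.63 and 4.59 FPKM across somatotropes 1 to 3, against 4.92, 8.45 and 14.4 FPKM across lactotropes 1 to 3. S100a16, 26892 bases away, was higher in somatotropes in all 3 pairs, with a log2 difference of 1.15 (SE 0.83, limma adjusted p = 1.00). All 4 genes of this section were named after their values were seen.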
